A study of Sus scrofa with 12 samples.

Results

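The genes described here are KRT8, KRT18 and KRT19, which encode keratins of simple epithelia, CDH1 and CDH2, which encode E-cadherin and N-cadherin, and EPCAM, which encodes an epithelial cell adhesion molecule. These 6 genes were chosen by symbol with measured values in view, because the keratins had been seen to vary strongly between cell lines and to be higher with SB431542. Of the 6, 5 had a row under their symbol among the 24358 genes of the tables. KRT19 had no such row and is not described further. All 5 genes with a row passed the filter on low values in both comparisons.

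RNA was sequenced from 12 libraries of PC-iPS cells, induced pluripotent stem cells made from pig pericytes, in 4 groups of 3. WT libraries came from PC-iPS cells without the reporter. Knock-in libraries came from reporter cells, in which a FLAG tag, a self-cleaving peptide, the red fluorescent protein tdTomato and a puromycin resistance gene were placed at NANOG of PC-iPS cells by CRISPR-Cas9. Activin A libraries came from knock-in cells given Activin A, a ligand of the TGF-β family, and SB431542 libraries came from knock-in cells given SB431542, an inhibitor of the receptors through which Activin A and TGF-β signal. The cells were of domestic pig, and the labels give an adult stage. The labels name the LCDMV culture system for all libraries, whereas the methods of the study describe its cytokine experiments in LCDMV without LIF. Knock-in cultures were sorted for tdTomato and were not clones, so a culture could hold cells with the insertion at either NANOG locus, on a single allele or on all alleles, and wild-type cells. The labels of all libraries describe a short plating step that removed most feeder cells before RNA was extracted, whereas the study describes its cytokine screens as free of feeders, and which of these held for the treated libraries is not stated. The numbers 1 to 3 of the knock-in, Activin A and SB431542 libraries were read as the numbers of 3 knock-in lines, whereas the WT numbers mark no line. On that reading the libraries of a knock-in group came from separately transfected cultures. Nothing in the sources says that the WT libraries were separate cultures, so their spread may be technical.

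Keratin 8 is a type II keratin and keratin 18 a type I keratin. The proteins pair to form the intermediate filaments of simple epithelia, and they are the first keratins made in the mammalian embryo, where trophectoderm carries them. Filaments are anchored at desmosomes through desmoplakin and plakophilins. E-cadherin and N-cadherin join neighbouring cells at adherens junctions and bind β-catenin inside the cell, which α-catenin and vinculin link to actin. E-cadherin marks epithelia and mouse embryonic stem cells, whereas N-cadherin is usual in neural and mesenchymal cells, and a change from the first to the second is a classical sign of epithelial to mesenchymal transition.

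Levels are given as FPKM, a fragment count scaled to the depth of the library and to the length of the gene's exons. Summed FPKM per library ranged from 364241 to 390320, and read counts were not used here, so the depth behind a value is not known and no counting error is given. Relative depth, estimated from steps in low values and set at 1 for knock-in library 1, was 0.566 to 0.633 in the WT libraries and 0.732 to 1 in the others, and its part in the differences between knock-in and WT was not tested. NANOG (ENSSSCG00000040403), whose reads may be shared between its loci on chromosomes 1 and 5, was at 52.0, 101 and 70.4 FPKM in the knock-in libraries, at 9.71, 16.4 and 27.6 FPKM in the WT libraries, at 109, 195 and 157 FPKM with Activin A and at 11.8, 27.2 and 11.8 FPKM with SB431542. Libraries with the same line number deviated together from their group means, at correlations across genes of 0.40 to 0.587 between Activin A and SB431542, and libraries with different numbers at -0.499 to -0.146.

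KRT8 (ENSSSCG00000000252) lies on chromosome 5 from 18172423 to 18180277 in Sscrofa11.1. It was the most abundant keratin in every library, and it had the widest range of the 5 genes. Its level was 7.51, 3.34 and 8.50 FPKM in WT libraries 1 to 3. In the knock-in libraries of lines 1, 2 and 3 it was 96.7, 428 and 44.3 FPKM. All 3 knock-in libraries were above all 3 WT libraries, and the lowest knock-in library was 5.22 times the highest WT library. Groups that did not overlap were common in this comparison, at 35.7% of the genes tested. With Activin A the level was 100, 334 and 35.3 FPKM, and with SB431542 it was 200, 835 and 90.4 FPKM. Among all rows of a library, KRT8 ranked between 111 and 1328 from the top in knock-in cells, between 52 and 545 with SB431542 and between 6382 and 9093 in WT cells.

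Knock-in and WT cells were compared to ask what the reporter cells, in which NANOG was higher, express differently. KRT8 rose in knock-in cells by 4.13 on the log2(FPKM + 1) scale (SE 0.746, n = 3 per group, adjusted p = 0.0251 by limma with Benjamini-Hochberg adjustment over all genes). The group means were 189.5 ± 208 FPKM in knock-in and 6.45 ± 2.74 FPKM in WT cells (SD, n = 3), a ratio of 29.4. Genes were called where the log2 fold change was 1 or more in size and the adjusted p did not exceed 0.05. By these thresholds 2.31% of 14014 genes were called, 225 higher and 99 lower in knock-in cells, and KRT8 was the only called gene of the 5. The rise of KRT8 was known when the genes were chosen and is not independent support. The call was lost without knock-in library 1 (adjusted p = 0.0764 by limma), WT library 1 (0.0725) or WT library 2 (0.0686). It was kept without knock-in library 2, which had the highest level, at a log2 fold change of 3.24 (adjusted p = 0.026 by limma). A larger share of KRT8-positive cells and more KRT8 RNA per cell cannot be told apart in these bulk libraries.

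**Figure D1:**
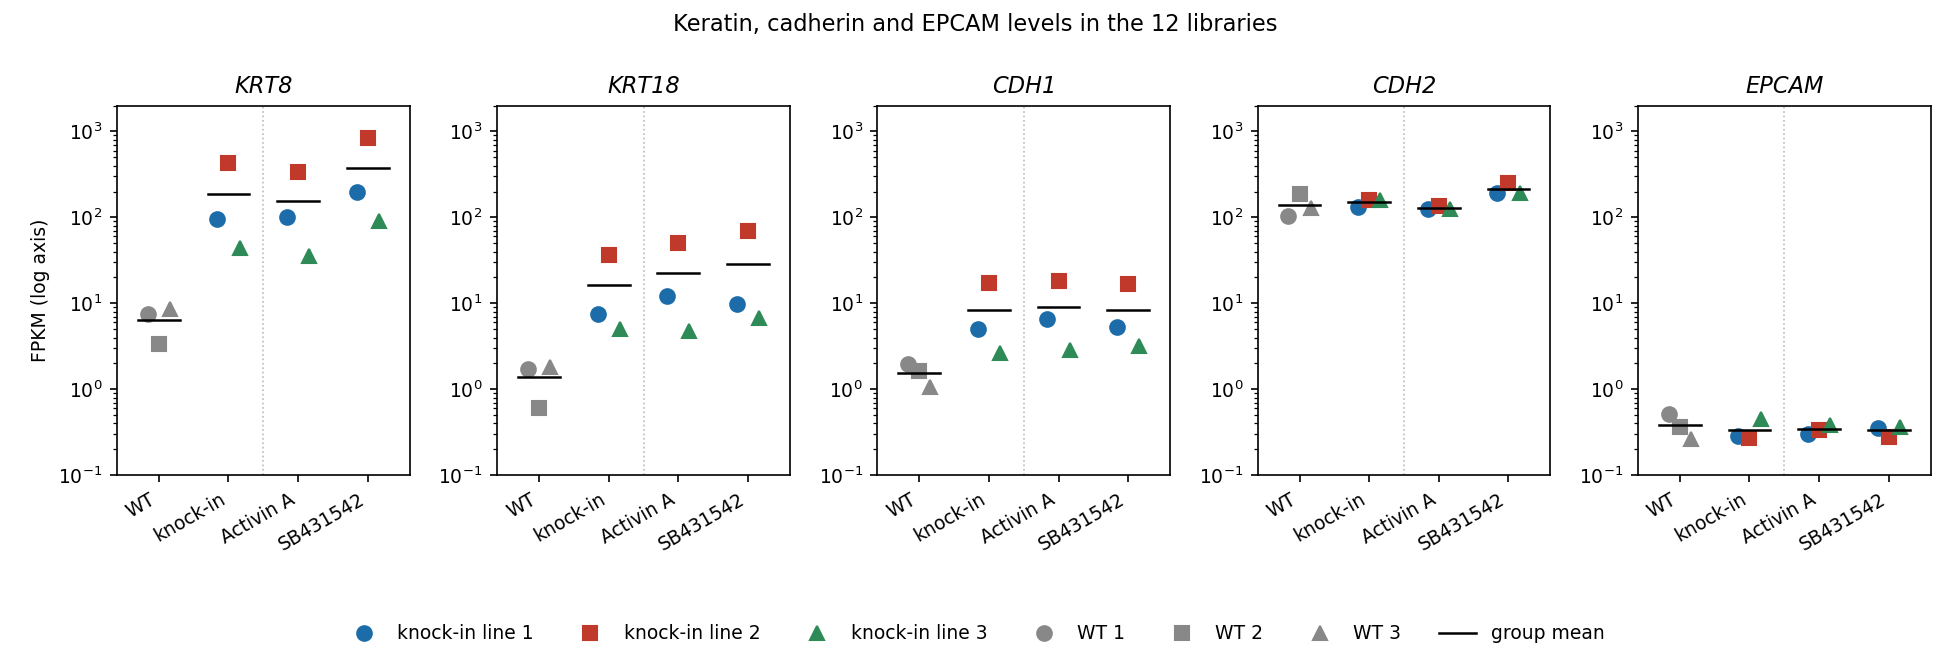
Levels of KRT8, KRT18, CDH1, CDH2 and EPCAM in each of the 12 libraries, as FPKM on a log axis, by group; colours and shapes mark knock-in lines 1 to 3, grey shapes mark WT libraries, horizontal bars are group means, and the dotted line separates the tables. KRT8 ran from 3.34 FPKM in a WT library to 835 FPKM in the SB431542 library of line 2, whereas EPCAM lay between 0.264 and 0.516 FPKM.

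KRT18 (ENSSSCG00000000253), the filament partner of KRT8, lies on the same chromosome from 18217686 to 18221432. The interval of 37408 bp between the 2 genes holds 1 annotated gene, a long noncoding RNA. KRT18 was at 1.74, 0.607 and 1.83 FPKM in the WT libraries. In the knock-in libraries it was at 7.57, 36.3 and 5.004 FPKM. WT library 2 was the lowest for both keratins, and knock-in line 2 the highest. All knock-in libraries were above all WT libraries, with group means of 16.3 ± 17.4 and 1.39 ± 0.681 FPKM (SD, n = 3). The log2 fold change of 2.42 (SE 0.632) did not pass the test (adjusted p = 0.0604 by limma). It passed with a pseudocount of 0.1 or 0.01, a filter of 1 FPKM or TPM, at adjusted p-values of 0.0459 to 0.0497 by limma, so its call depended on the setting. Without knock-in library 2 it was 1.63. With Activin A, KRT18 was at 12.1, 50.3 and 4.79 FPKM, and with SB431542 at 9.87, 68.8 and 6.81 FPKM.

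The keratins pair in equal numbers in filaments, but their RNAs were not equal in any library. The ratio of KRT8 to KRT18 FPKM was 4.32, 5.51 and 4.65 in WT cells and 12.8, 11.8 and 8.86 in knock-in cells. Every knock-in library had a higher ratio than every WT library (exact two-sided permutation test, p = 0.1, the smallest p that 3 libraries against 3 allow). The rise of KRT8 was known when the genes were chosen, so this ratio is a description and not independent support. With Activin A the ratio was 8.24, 6.64 and 7.36, and with SB431542 it was 20.3, 12.1 and 13.3. In each line the ratio was higher with SB431542 than with Activin A, a contrast that was in view when the genes were chosen.

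CDH1 (ENSSSCG00000025652) lies on chromosome 6 from 18075487 to 18155986. Its level was low in WT cells, at 1.97, 1.64 and 1.05 FPKM. In the knock-in libraries it was 5.01, 17.5 and 2.63 FPKM, and these did not overlap with WT, although the lowest knock-in library was only 1.33 times the highest WT library. The means were 8.37 ± 7.96 and 1.55 ± 0.465 FPKM (SD, n = 3). The log2 fold change of 1.55 (SE 0.534) did not pass the test (adjusted p = 0.113 by limma), nor did it under any alternative run, with adjusted p-values of 0.0593 to 0.204 by limma. It was 0.89 without knock-in library 2, below the fold threshold. The study, which tested read counts, reported CDH1 as upregulated in knock-in cells by RNA sequencing and also by RT-PCR. With Activin A, CDH1 was at 6.53, 18.1 and 2.85 FPKM, and with SB431542 at 5.30, 16.9 and 3.20 FPKM. Beside the untreated knock-in library of the same number, in the other table, CDH1 was at 1.06, 0.968 and 1.22 times with SB431542 and at 1.304, 1.04 and 1.08 times with Activin A.

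CDH2 (ENSSSCG00000003722), on chromosome 6 from 112396713 to 112629073, was abundant in every library. Its level was 105, 185 and 127 FPKM in WT cells and 132, 161 and 160 FPKM in knock-in cells. These groups overlapped, and the log2 fold change of 0.15 (SE 0.203) did not pass the test (adjusted p = 0.651 by limma). Without WT library 1 it was -0.03. With Activin A, CDH2 was at 124, 136 and 125 FPKM, and with SB431542 at 191, 253 and 194 FPKM. In each line CDH2 was higher with SB431542 than with Activin A, a direction held in all 3 lines by 25.2% of the genes tested. The genes were chosen with this contrast in view, so these values are a description.

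CDH2 RNA exceeded CDH1 RNA in every library, per unit of gene length. The ratio of CDH2 to CDH1 FPKM was 53.2, 113 and 121 in WT cells and 26.4, 9.24 and 61.0 in knock-in cells, so the groups overlapped (exact two-sided permutation test, p = 0.2). It was 19.0, 7.50 and 43.8 with Activin A and 36.0, 15.0 and 60.6 with SB431542. The ratio was higher with SB431542 in each line and lowest in line 2 in each group of knock-in cells. Treatments and lines were in view when the genes were chosen, so this is a description. CDH2 was higher with SB431542 in all lines, whereas CDH1 had no like direction between treatments. Between lines both were highest in line 2, with the wider range for CDH1.

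EPCAM (ENSSSCG00000008429), on chromosome 3 from 93169800 to 93185221, was low throughout, at 0.264 to 0.516 FPKM across the 12 libraries. Its level was 0.516, 0.361 and 0.264 FPKM in WT cells and 0.289, 0.270 and 0.445 FPKM in knock-in cells. The groups overlapped, and the log2 fold change was -0.05 (SE 0.108, adjusted p = 0.806 by limma). It ranked between 12180 and 12838 among the rows of a library, below CDH1 in all 12 libraries.

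**Figure D2:**
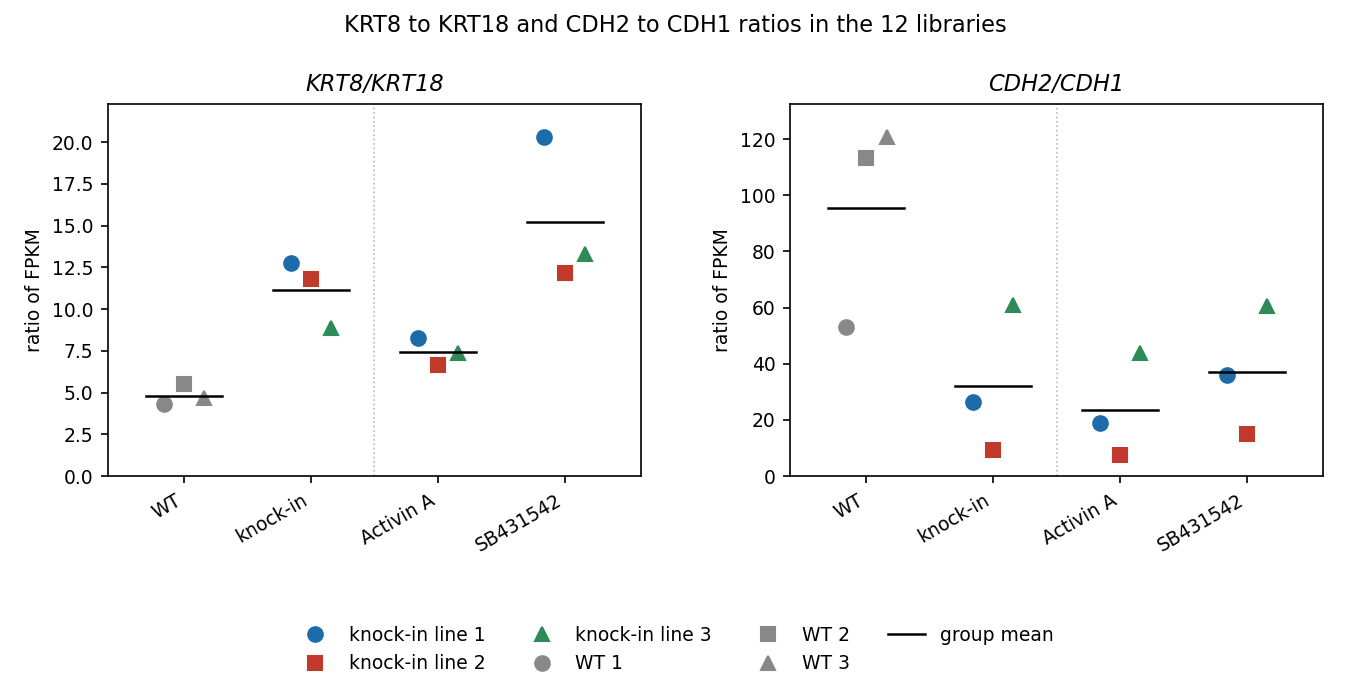
Ratios of KRT8 to KRT18 and of CDH2 to CDH1 FPKM in each library, by group; colours and shapes mark knock-in lines 1 to 3, grey shapes mark WT libraries and horizontal bars are group means. The KRT8 to KRT18 ratio is 4.32 to 5.51 in WT and 8.86 to 12.8 in knock-in cells, and the CDH2 to CDH1 ratio is lowest in line 2 in each group of knock-in cells.

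Activin A and SB431542 were compared to learn which genes respond when the pathway that Activin A activates is stimulated or blocked. The keratins were chosen on this contrast, so the values that follow are a description without a test. KRT8 was higher with SB431542 than with Activin A in the same line by 2.00 times in line 1, 2.50 times in line 2 and 2.56 times in line 3. CDH2 was higher with SB431542 by 1.54, 1.86 and 1.56 times. A gene was higher with SB431542 in all 3 lines for 25.2% of the genes tested, so the direction in itself was common. KRT18 was split, at 0.813 times the Activin A level in line 1, 1.37 times in line 2 and 1.42 times in line 3. CDH1 was also split, at 0.811, 0.931 and 1.12 times. EPCAM was at 1.16, 0.831 and 0.95 times.

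**Figure D3:**
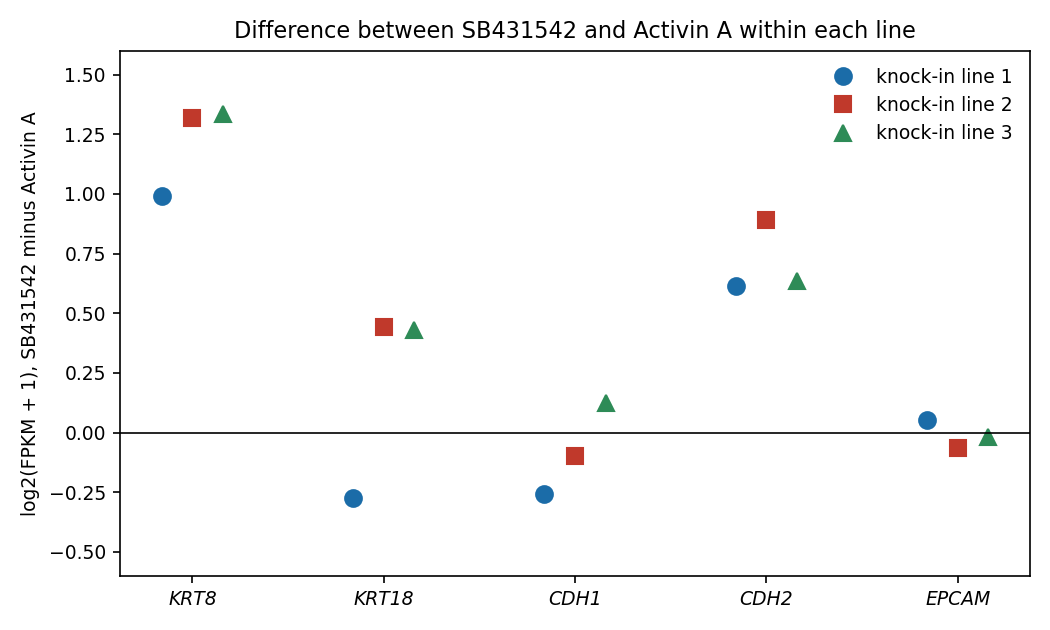
Difference between SB431542 and Activin A within each knock-in line for the 5 genes, on the log2(FPKM + 1) scale, with 1 library per line and treatment and a horizontal line at 0. KRT8 lies at 0.99 to 1.33 and CDH2 at 0.62 to 0.89, above 0 in all 3 lines, whereas KRT18, CDH1 and EPCAM lie on both sides of 0.

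Set beside the untreated knock-in libraries of the same number, which stand in the other table and were normalized separately, KRT8 was at 2.07, 1.95 and 2.04 times with SB431542 and at 1.03, 0.782 and 0.796 times with Activin A. CDH2 was at 1.45, 1.57 and 1.21 times with SB431542 and at 0.94, 0.844 and 0.778 times with Activin A. KRT18 was at 1.304, 1.90 and 1.36 times with SB431542 and at 1.603, 1.39 and 0.958 times with Activin A. Relative to the untreated cells, the distance for KRT8 was thus larger with SB431542 than with Activin A in each line. No test was made across the tables.

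Among knock-in cells the keratins and CDH1 varied more between lines than between treatments. KRT8, KRT18 and CDH1 were each highest in line 2, intermediate in line 1 and lowest in line 3 in the untreated, Activin A and SB431542 libraries alike. This order in all 3 groups was held by 3.96% of the genes tested in both tables. Line 2 exceeded line 3 by 9.65, 9.47 and 9.23 times for KRT8 in the untreated, Activin A and SB431542 libraries. The same ratio was 7.24, 10.5 and 10.1 for KRT18 and 6.64, 6.36 and 5.28 for CDH1. Line 1 exceeded line 3 by less, at 2.18 to 2.83 times for KRT8, 1.45 to 2.53 times for KRT18 and 1.66 to 2.29 times for CDH1.

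By the SD over lines of log2(FPKM + 1), KRT8 ranked 10th, 10th and 16th of 11272 genes with a mean of at least 1 FPKM in these cells, in the untreated, Activin A and SB431542 libraries. KRT18 ranked 20th, 14th and 13th, and CDH1 38th, 45th and 72nd. CDH2 ranked only 4608th, 8835th and 2832nd, with line 2 at 1.22, 1.095 and 1.32 times line 1. CDH2 nevertheless kept one line order, line 2 above line 3 above line 1, in all 3 groups, and with SB431542 line 2 was 1.324 and 1.304 times lines 1 and 3. These values chose the genes and are a description. After centring on the group means, KRT8 correlated with KRT18 at r = 0.982 and with CDH1 at r = 0.997 over the 9 knock-in libraries, which share 3 lines. For KRT8 and CDH2 the value was 0.608.

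KRT8 made up most of the keratin RNA in the knock-in, Activin A and SB431542 libraries. Of the summed FPKM of 37 rows with a keratin symbol, KRT8 accounted for 79.7% to 89.8% in knock-in cells, 74.5% to 84.2% with Activin A, 87.0% to 91.8% with SB431542 and 38.8% to 53.8% in WT cells. KRT18 accounted for 4.53% to 12.7% across the 12 libraries. Of the other 35 rows, 16 were at 0 in all libraries and 4 reached 1 FPKM, KRT14, KRT10, KRT222 and KRT2. KRT7 and KRT20, other keratins of simple epithelia, were at or near 0. KRT14, the type I keratin of basal epidermis, was at 1.67, 6.82 and 0.811 FPKM in knock-in cells and 0.620, 0.118 and 0.272 FPKM in WT cells (log2 fold change 1.35, SE 0.486, adjusted p = 0.124 by limma). It was at 3.67, 7.16 and 0.712 FPKM with Activin A and 1.74, 7.62 and 0.662 FPKM with SB431542, with the line order of KRT8. KRT10 was at 1.14 to 2.13 FPKM in all libraries. KRT222, a keratin-like gene, was at 1.52 to 1.91 FPKM with Activin A and 3.55 to 4.02 FPKM with SB431542 (log2 fold change -0.80, adjusted p = 0.0701 by limma, and 0.0266 with the line as a block, short of the fold threshold). KRT2 reached 2.31 FPKM in the Activin A library of line 3 and was below 1 FPKM elsewhere. KRT25, KRT26 and KRT27 passed the filter in both tables, and KRT80 in that of the treated cells, but all were below 1 FPKM in every library.

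Among 22 rows with a cadherin symbol, CDH2 made up 61.8% to 74.7% of the summed FPKM and CDH1 0.585% to 8.24%. Of the other 20 cadherins, 8 had a mean of at least 1 FPKM. CDH11, a cadherin of mesenchymal cells, was the next most abundant, with a mean of 28.1 FPKM (range 16.6 to 41.4), followed by CDH6 at 12.4 FPKM (6.97 to 27.4) and CDH24 at 7.67 FPKM (3.19 to 11.2). CDH3, which encodes P-cadherin of epithelia, did not exceed 0.791 FPKM, and CDH5, the cadherin of endothelium, did not exceed 0.0947 FPKM.

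The lists of related genes were then read in the same fits. Of 18 tested genes of the keratin list, which holds filament, plakin and desmosome genes and transcription factors that bind keratin genes, 1 rose in knock-in cells and 0 fell, with 17 not called. Over all genes tested 2.31% were called, and a single call in a list of this size is not a result about the list. The median log2 fold change was 0.67, against -0.001 over all genes tested, and 16 of 18 were above 0. The called gene was TFAP2A, an AP-2 transcription factor of trophectoderm, surface ectoderm and neural crest, at 12.7, 25.8 and 17.9 FPKM in knock-in and 4.72, 5.43 and 6.38 FPKM in WT cells (log2 fold change 1.56, SE 0.244, adjusted p = 0.0186 by limma). The call of TFAP2A was lost without WT library 1 or 2, at adjusted p-values of 0.0596 and 0.0502 by limma. TFAP2C, a paralog of TFAP2A, was at 2.82, 9.41 and 2.28 FPKM in knock-in and 0.512, 0.734 and 0.575 FPKM in WT cells and missed the threshold (log2 fold change 1.66, SE 0.401, adjusted p = 0.0511 by limma). The filament genes VIM, NES and LMNA passed the adjusted p alone, at log2 fold changes of 0.81, 0.80 and 0.84.

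Of 23 tested genes of the cadherin complex, 1 rose and 0 fell in knock-in cells, again a single call beside the 2.31% called over all genes tested, and the median log2 fold change was 0.10. VCL, which encodes vinculin, was at 67.9, 73.2 and 53.0 FPKM in knock-in and 18.9, 23.8 and 22.4 FPKM in WT cells (log2 fold change 1.53, SE 0.149, adjusted p = 0.00426 by limma). VCL kept its call in knock-in cells under every alternative run, with adjusted p-values of 0.00313 to 0.022 by limma. The catenins CTNNB1 and CTNNA1 were abundant and not called, at 221 to 271 and 71.8 to 80.8 FPKM in knock-in and 283 to 313 and 67.0 to 75.5 FPKM in WT cells. JUP, plakoglobin of desmosomes and adherens junctions, and PTPRF, a receptor phosphatase of these junctions, passed the adjusted p alone (0.0305 and 0.0251 by limma) at log2 fold changes of 0.78 and 0.76.

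None of 30 tested genes of the epithelial junction and identity list was called by limma (0 higher and 0 lower), and the median log2 fold change was 0.11. An unadjusted p under 0.05 was held by 7 of these 30 genes, against 10 of 18, 12 of 23 and 10 of 18 in the keratin, cadherin and repressor lists and 28.6% of all genes tested. CLDN6, a claudin of early embryonic epithelia, was at 103, 125 and 81.7 FPKM in knock-in and 54.1, 56.1 and 93.2 FPKM in WT cells (adjusted p = 0.139 by limma). CD9, a tetraspanin of pluripotent and epithelial cells, was at 69.8, 105.5 and 114 FPKM in knock-in and 183, 195 and 178 FPKM in WT cells, and it passed the adjusted p (0.0277 by limma) but not the fold threshold, at a log2 fold change of -0.96.

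Of 18 tested repressors of CDH1 and mesenchymal genes, 2 rose and 0 fell in knock-in cells, beside the 2.31% called over all genes tested, and the median log2 fold change was 0.48. TWIST1, a repressor of CDH1, was at 16.1, 13.1 and 11.2 FPKM in knock-in and 3.16, 4.29 and 5.98 FPKM in WT cells (log2 fold change 1.42, SE 0.221, adjusted p = 0.0184 by limma). TWIST2, a relative of TWIST1, was at 4.14, 4.77 and 6.03 FPKM in knock-in and 0.278, 0.848 and 1.67 FPKM in WT cells (log2 fold change 1.68, SE 0.272, adjusted p = 0.0203 by limma). TWIST1, TWIST2 and CDH1 were each higher in every knock-in than in every WT library, which does not set them apart where groups did not overlap for 35.7% of all genes tested, and CDH1 did not pass the test. The calls of TWIST1 and TWIST2 were lost without knock-in library 1 or 2, and that of TWIST2 also without WT library 2, at adjusted p-values of 0.0535 to 0.0729 by limma. ZEB1, another repressor, was at 15.7, 18.3 and 24.3 FPKM in knock-in and 28.9, 25.9 and 33.8 FPKM in WT cells (log2 fold change -0.59, adjusted p = 0.0808 by limma). SNAI1 did not exceed 1.42 FPKM in these groups. TGFBI passed the adjusted p alone (0.0195 by limma), at a log2 fold change of 0.915.

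**Figure D4:**
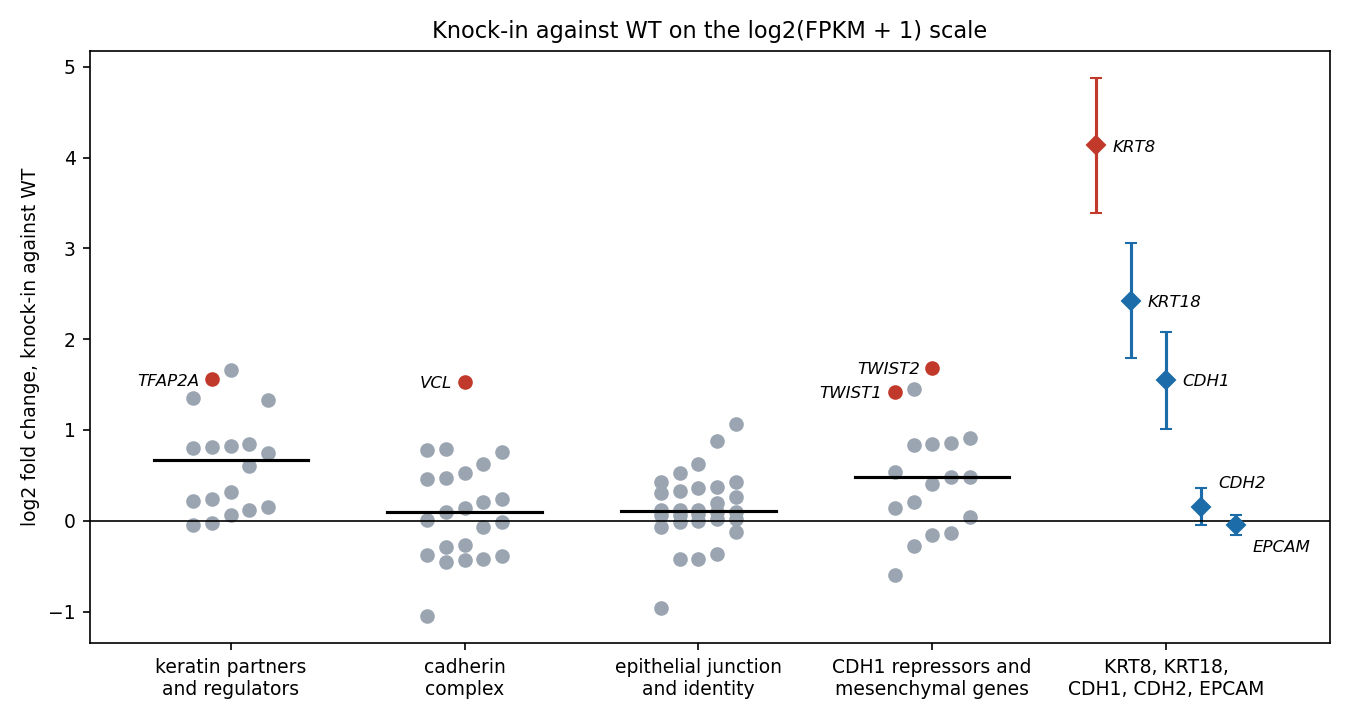
Log2 fold change of knock-in against WT for the tested genes of 4 lists (circles, with a bar at the list median) and for the 5 genes described (diamonds, with bars of 1 SE), on the log2(FPKM + 1) scale; red marks genes called at both thresholds. KRT8 stands at 4.13, above every list gene, and the list medians are 0.67, 0.10, 0.11 and 0.48 from left to right.

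Between Activin A and SB431542, 0.0929% of 13999 genes were called, 8 higher and 5 lower with Activin A. With the line as a block, which the shared line numbers allow, 0.707% were called, 73 higher and 26 lower. Among the list genes VCL was the only one called without the block, at 38.9, 36.9 and 26.1 FPKM with Activin A and 96.0, 99.2 and 84.7 FPKM with SB431542 (log2 fold change -1.45, SE 0.155, adjusted p = 0.0424 by limma, and 0.0138 with the block). VCL thus had the group order of KRT8, higher in knock-in than in WT cells and higher with SB431542 than with Activin A. With the block TFAP2C was called too, in the opposite direction, at 6.93, 17.8 and 4.21 FPKM with Activin A and 1.27, 6.36 and 1.01 FPKM with SB431542 (log2 fold change 1.51, adjusted p = 0.389 by limma and 0.0187 with the block). Without the block, 6 of 20, 4 of 23, 5 of 31 and 4 of 18 genes of the lists had an unadjusted p under 0.05 by limma, in the order of the lists above, against 12.8% of all genes tested. With the block these counts were 9, 9, 9 and 5, against 23.7%. Their median log2 fold changes were 0.01, -0.06, -0.04 and 0.06, against -0.004 over all genes tested. Without the block, the count over all genes was between 0 and 5 when any of the libraries was left out, Activin A library 2 and SB431542 libraries 1 and 3 giving 0. The call of VCL was lost in each of these fits (adjusted p-values of 0.0587 to 0.208 by limma), while its log2 fold change stayed between -1.554 and -1.275. With the block, leaving out both libraries of line 1, 2 or 3, an alternative chosen after seeing the data, gave 2, 66 and 87 genes. VCL kept its call in this fit without line 2 or 3 and lost it without line 1 (adjusted p = 0.0385, 0.0251 and 0.0665 by limma), and TFAP2C kept its call only without line 3 (0.0396, against 0.105 and 0.0501 without lines 1 and 2).

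Lines were compared for the list genes by the moderated F test of limma on the Activin A and SB431542 libraries with treatment in the model. The lists were drawn up with earlier results of these libraries known, so the counts are not independent support. Lines differed at an adjusted p of at most 0.05 for 1.54% of 13999 genes. Among the lists, this held for 2 of 20 keratin-list genes, 3 of 23 genes of the cadherin complex, 2 of 31 epithelial genes and 0 of 18 repressors and mesenchymal genes. An unadjusted p under 0.05 by limma was held by 12, 11, 14 and 8 of them, against 24.6% of all genes tested. KRT14 and TFAP2C (adjusted p = 0.0459 and 0.0335 by limma) were highest in line 2. PERP, a desmosomal protein of epithelia, was at 3.34, 8.35 and 2.44 FPKM with Activin A (adjusted p = 0.022 by limma). CLDN6 (0.0428) and CDH6 (0.0363) were also highest in line 2.

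CTNNA2, the α-catenin of neural cells, ran the other way, at 18.8, 9.55 and 22.5 FPKM with Activin A and 16.9, 7.70 and 20.2 FPKM with SB431542 (adjusted p = 0.0209 by limma). NECTIN1, an immunoglobulin-like adhesion protein of adherens junctions, was likewise lowest in line 2 (adjusted p = 0.0469 by limma). The 7 calls were all lost when any of the 6 libraries was left out, which leaves a line with 1 library that is assumed to vary like the others. In the untreated knock-in libraries, which this test did not use, line 2 was again the highest for KRT14, TFAP2C, PERP, CLDN6 and CDH6. It was again the lowest for CTNNA2 and NECTIN1. These libraries were read as the same lines, so the repeat is not independent support, and its share over all genes was not counted. The order of KRT8, line 2 above line 1 above line 3 in all 3 groups, was held by 3 of 18 keratin-list genes (KRT14, PKP2 and TFAP2C) and 5 of 29 epithelial genes (CLDN6, TJP3, CXADR, RAB25 and PERP), against 3.96% of all genes tested. It was held by 0 of 23 genes of the cadherin complex and 0 of 18 repressors and mesenchymal genes.

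**Figure D5:**
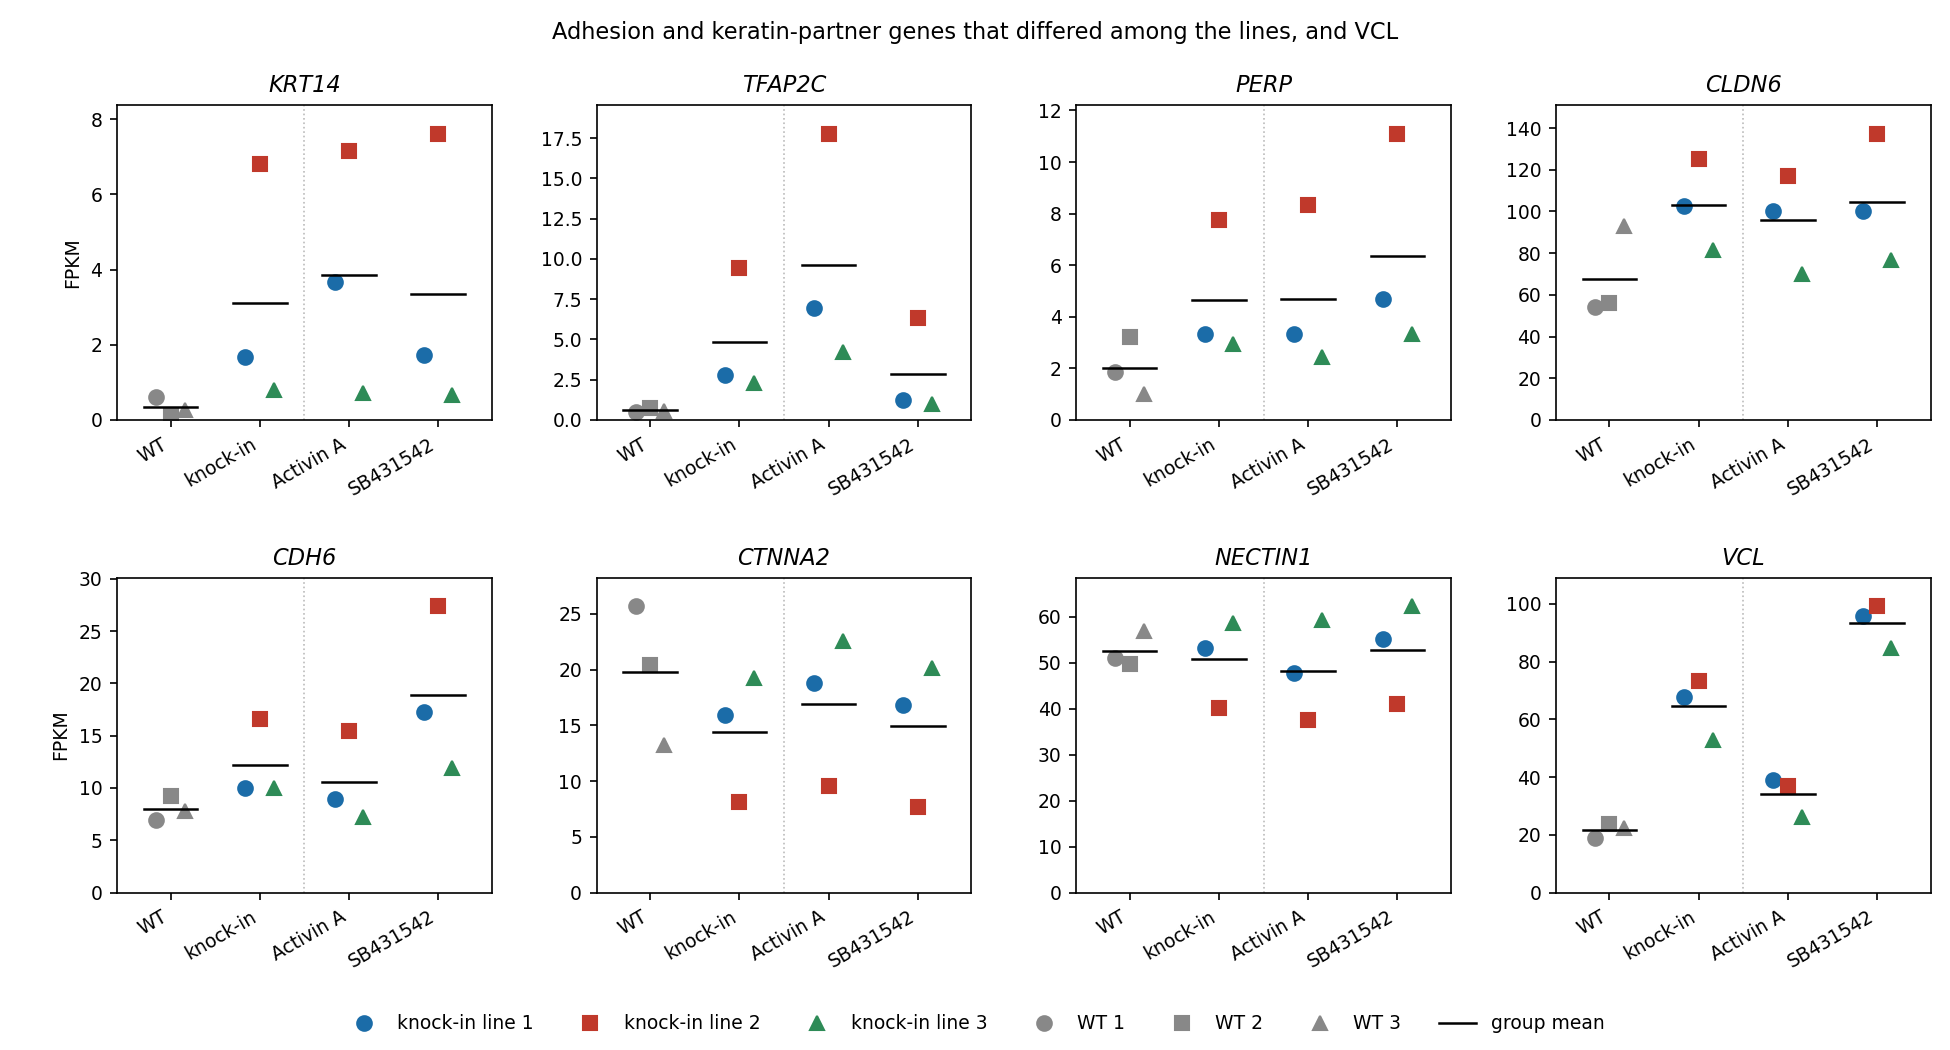
FPKM of the 7 list genes that differed among lines, and of VCL, in each library, by group; colours and shapes mark knock-in lines 1 to 3, grey shapes mark WT libraries, and bars are group means. Line 2 is highest for KRT14, TFAP2C, PERP, CLDN6 and CDH6 and lowest for CTNNA2 and NECTIN1, whereas VCL follows the group, at 26.1 to 38.9 FPKM with Activin A and 84.7 to 99.2 FPKM with SB431542.

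The genes whose log2(FPKM + 1) over the 12 libraries was most like the mean standardised profile of KRT8 and KRT18, among 10494 candidates, were RBMS1 (Pearson r = 0.991), LAMB1 (0.983), PPT2 (0.976), DSC3 (0.973), GREM1 (0.972), SEMA3C (0.972), MAFG (0.97) and VASN (0.969). These values are a description over libraries that share lines and treatments. LAMB1, a laminin chain of basement membranes, was at 10.2, 18.5 and 6.02 FPKM in knock-in, 2.60, 2.55 and 2.97 FPKM in WT, 12.2, 21.1 and 5.91 FPKM with Activin A and 14.1, 28.5 and 6.49 FPKM with SB431542. DSC3, a desmosomal cadherin, was at 13.8, 19.3 and 12.6 FPKM in knock-in, 9.46, 7.21 and 9.82 FPKM in WT, 13.02, 17.6 and 11.5 FPKM with Activin A and 17.5, 23.5 and 14.3 FPKM with SB431542. SEMA3C, a secreted semaphorin, reached 26.6 FPKM in the SB431542 library of line 2. The genes most like CDH2 among 10495 candidates were AFF1 (r = 0.922), NOS1AP (0.909), SPTLC1 (0.906) and OGFRL1 (0.902). With Spearman's rho in place of Pearson's r, 2 of the 8 genes and 3 of the 4 genes remained.

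The labelled cell type and the other cell types that carry these genes were checked with marker lists. Of 13 pluripotency markers 9 had a row, of which 6 reached 1 FPKM (NANOG, SOX2, LIN28A, SALL4, DNMT3B and ESRRB) and TDGF1, ZFP42 and PRDM14 stayed below it. POU5F1 had no row under its symbol. The summed pluripotency list was 282 to 496 FPKM in knock-in, 136 to 155 FPKM in WT, 292 to 488 FPKM with Activin A and 318 to 629.9 FPKM with SB431542, highest in line 2 in each of the knock-in groups and higher with SB431542 in lines 1 and 2 but not in line 3. The higher sum with SB431542 was carried by LIN28A, which encodes an RNA-binding protein, at 67.5 to 200 FPKM with Activin A and 192 to 498 FPKM with SB431542. Without LIN28A the sum was lower with SB431542 in all 3 lines, at 118 to 132 FPKM against 202 to 288 FPKM with Activin A. Of 10 trophectoderm markers, TFAP2A, TFAP2C, GATA2, GATA3 and TEAD4 reached 1 FPKM. The others on the list, CDX2, ELF5, EOMES, HAND1 and KRT7, did not exceed 0.0746 FPKM, with CDX2 at 0 in all libraries. The summed level of the trophectoderm list was 33.9 to 64.7 FPKM in knock-in and 14.1 to 15.4 FPKM in WT cells. It was 52.5 to 97.01 FPKM with Activin A and 36.0 to 57.6 FPKM with SB431542. This sum too was highest in line 2 in each of the knock-in groups, as KRT8 was. In each line the sum was lower with SB431542 than with Activin A, whereas KRT8 was higher with SB431542. The lower sum was carried mainly by GATA2, at 21.66 to 38.86 FPKM with Activin A and 2.149 to 10.8 FPKM with SB431542. TFAP2A and TFAP2C were also lower with SB431542 in each line, and GATA3 in lines 1 and 3. TEAD4 went the other way in each line, at 7.169 to 9.864 FPKM with Activin A and 11.98 to 19.94 FPKM with SB431542. TFAP2A, TFAP2C, GATA3 and KRT7 are on both this list and the keratin list.

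Of 10 endoderm markers, SOX17, FOXA2, GATA4, HNF4A and AFP did not exceed 0.212 FPKM, and the sum, carried by GATA6, APOA1 and CXCR4, was 87.3 to 99.4 FPKM in knock-in, 36.3 to 41.7 FPKM in WT cells, 95.8 to 102 FPKM with Activin A and 68.6 to 97.6 FPKM with SB431542, lower with SB431542 in each line. The summed pericyte list was 50.2 to 52.1 FPKM in knock-in, 28.7 to 31.8 FPKM in WT, 44.8 to 50.6 FPKM with Activin A and 59.7 to 61.0 FPKM with SB431542. The summed fibroblast list, with LUM, POSTN and PDGFRA at no more than 0.431 FPKM, was 27.7 to 51.9 FPKM in knock-in, 10.7 to 18.7 FPKM in WT, 50.3 to 75.4 FPKM with Activin A and 15.7 to 23.8 FPKM with SB431542. Of its genes COL1A2, DCN, FBN1 and THY1 were higher in every knock-in than in every WT library and COL3A1 in knock-in libraries 2 and 3, whereas COL1A1 was lower in every knock-in library, with means of 0.622 FPKM in knock-in and 1.13 FPKM in WT cells, and LUM, POSTN and PDGFRA had lower means in knock-in cells. All 5 sums were higher in every knock-in library than in every WT library. Their part in the keratin and cadherin values was not tested.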

How the data were processed

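The deposited values are FPKM, in separate tables for the untreated and the treated cells. To make them, per the study's methods and processing notes, the authors used Trim Galore for trimming, HISAT2 2.0.4 for alignment to the pig build Ssc11.1, and StringTie 1.3.3 with an Ensembl annotation. They tested featureCounts counts, which were not used here. FPKM depends on the other genes of a library, and reads shared by related keratins may be split or lost. All members and lists were chosen with earlier results of these data known.

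Each table was fitted alone. A gene was tested if 3 or more of 6 libraries had 0.1 FPKM or above. Values were taken as log2(FPKM + 1) into limma 3.58.1 (R 4.3.3), whose variance prior followed a trend on the mean. Fold changes on this scale understate those of low genes. Fits had no block. Libraries of the same line number pair Activin A with SB431542, from the line numbers of the study and the correlations of their deviations (0.4 to 0.587), so values with the line as a block are given beside the unblocked ones there; knock-in and WT numbers do not pair (-0.018 to 0.094).

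Genes named are the 6 chosen, NANOG, called genes of the 4 lists, keratins that passed the filter, and the 8 and 4 genes most like the keratins and CDH2. KRT19, which was to enter that profile, had no row. Other genes were named after their values were seen. Ensembl identifiers came with a symbol for 18416 genes, 965 of them through a reference table, and coordinates are those of RefSeq on Sscrofa11.1, matched by symbol. Sequences and promoter motifs were not analysed here. The scripts were tested on simulated data. Alternatives were other pseudocounts (0.1 and 0.01), a filter of 1 FPKM or none, scaling to TPM, by median ratios or by quantiles, no variance trend, a replicate block, the adjusted p alone and each library left out. Figures were drawn with matplotlib 3.10.9.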

Additional observations from a re-analysis of the deposited data

Results flagged for a closer look

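For 3 of the genes the direction of SB431542 against Activin A was not the same in all lines. KRT18 was lower with SB431542 in line 1, by -0.273 on the log2(FPKM + 1) scale, and higher in lines 2 and 3, by 0.444 and 0.431. CDH1 was higher with SB431542 in line 3, by 0.125, and lower in lines 1 and 2, by -0.258 and -0.097. EPCAM was higher in line 1, by 0.054, and lower in lines 2 and 3, by -0.063 and -0.02. The difference between lines was not tested, since each line has 1 library per treatment.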

How the results depend on the processing

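Depth is unknown, and with 3 libraries per group many calls lay near the threshold. The count of genes called in knock-in against WT (324) was 538 and 501 with pseudocounts of 0.1 and 0.01, 199 with no filter, 1012 by the adjusted p alone and 145 to 446 without single libraries, lowest without knock-in library 1. Of the 5 genes described, 1 was called, against 2 with either pseudocount, the filter of 1 FPKM or TPM, 0 with no filter or the replicate block, and 0 to 1 without single libraries. Of the list genes 4 were called, against 11 by the adjusted p alone and 2 to 8 without single libraries, 2 of them without knock-in library 1 or WT library 2 and 8 without WT library 3.

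Between Activin A and SB431542, 13 genes were called, against 8 with a pseudocount of 0.01, 5 with no filter or the filter of 1 FPKM, 7 without the variance trend, 99 with the replicate block, 2, 66 and 87 with the block and line 1, 2 or 3 left out, and 0 to 5 without single libraries. The list genes called there (1) were 0 under the pseudocount of 0.01, no filter, the filter of 1 FPKM and no variance trend and 0 without single libraries, against 2 with the block and 0 to 5 with the block and a line left out. The 7 list genes that differed among lines were 0 with no filter and 0 without single libraries. The log2 fold changes of CDH2 and EPCAM in knock-in against WT ranged from -0.028 to 0.38 and from -0.108 to 0.023 without single libraries, both with the other sign without WT library 1. Knock-in and WT share only numbers; with the replicate block 232 genes were called, and KRT8 and TWIST1 were not (adjusted p = 0.0594 and 0.0546 by limma). The cause of these changes was not tested.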
